A study of Homo sapiens with 3 samples.

Results

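C/D box small nucleolar RNA genes were followed in the transcriptomes of 293T, an established line of human kidney origin that carries a viral large T antigen. The members are the 257 gene names starting with SNORD among the 23284 names in the deposited values, and they were chosen by name alone. All 3 libraries came from cells that transiently expressed dCas9-VP64, a Cas9 that does not cleave DNA joined to a transcriptional activator. The cells received either the parental sgRNA vector (mock), sgL1ASP #1 or sgL1ASP #3, both of which target the antisense promoter in the LINE-1 retrotransposon. There was 1 library per condition, so differences between the conditions have no replicate check and no p-value is given. The values are FPKM, fragments assigned to a gene after scaling for its length and for all mapped fragments of the library, and they summed to 619902 in mock, 661449 with sgL1ASP #1 and 673483 with sgL1ASP #3. Read numbers were not part of the files, so the depth of each library in reads is unknown. Of 7 markers usually seen in 293T cells, 6 had FPKM of at least 1 in every library, VIM between 807 and 904, while PAX2 was between 0.522 and 0.658. Of 8 markers of other cell types, 4 (PTPRC, CD3E, COL1A2 and HBB) were listed at 0 in every library, and the highest was COL1A1 with FPKM between 1.99 and 2.55. The summed FPKM of these 8 markers was 3.26 in mock, 2.75 with sgL1ASP #1 and 3.31 with sgL1ASP #3. In a bulk library, fewer cells that express a gene and less RNA per cell cannot be told apart.

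C/D box small nucleolar RNAs are short noncoding RNAs of the nucleolus. Most of them are cut out of the introns of a host gene, bind the methyltransferase fibrillarin with its partner proteins, and pair with ribosomal RNA or small nuclear RNA to direct ribose methylation at the paired base. A few act in cleavage of the ribosomal RNA precursor instead. They carry no poly(A) tail, whereas the libraries were prepared with an mRNA kit that selects poly(A) RNA. The names of all 257 members were matched in RefSeq (256 by symbol and 1, SNORD85, by an older name), from which the gene lengths were taken.

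The RNAs are named after their C box near the 5′ end and D box near the 3′ end. The sequences of 1 member listed by the study, SNORD21, and of 4 others that were high in these libraries or belong to the U15 pair are shown to let their size and boxes be seen. They were read from GRCh37 (hg19) at the loci of GENCODE 44, 5′ to 3′, with capitals for a C box spelled ATGATGA or GTGATGA and a D box spelled CTGA. SNORD28, SNORD26 and SNORD76 are named without a sequence.
SNORD21 (chr1:93302846-93302940, plus strand): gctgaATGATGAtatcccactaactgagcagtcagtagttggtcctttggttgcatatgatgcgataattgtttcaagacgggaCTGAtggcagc
SNORD100 (chr6:133137941-133138016, plus strand): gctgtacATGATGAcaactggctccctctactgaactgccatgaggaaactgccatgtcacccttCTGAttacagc
SNORD104 (chr17:62223443-62223512, plus strand): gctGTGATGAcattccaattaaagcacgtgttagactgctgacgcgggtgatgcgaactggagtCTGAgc
SNORD33 (chr19:49993872-49993956, plus strand): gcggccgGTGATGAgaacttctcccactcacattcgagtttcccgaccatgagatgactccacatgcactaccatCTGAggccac
SNORD15A (chr11:75111435-75111582, plus strand): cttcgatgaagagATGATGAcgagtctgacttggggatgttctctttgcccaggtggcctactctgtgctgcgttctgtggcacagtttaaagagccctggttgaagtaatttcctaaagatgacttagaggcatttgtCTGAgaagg

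SNORD21 had 95 bases and SNORD100 had 76 bases, close to the read length of 75 bases. SNORD15A was longer, with 148 bases. Some lengths differ between the annotations, as for SNORD104 with 70 bases in GENCODE and 80 in RefSeq. Of 213 members whose sequence was read at a single locus on their RefSeq chromosome, 71.8% had one of the C box spellings starting within the first 20 bases and 95.8% had the D box within the last 20 bases. Both boxes were found in 70.4% of the members, in 0% of 69 SNORA genes, which belong to the H/ACA class, and in 0% of 213 windows of the same lengths, 500 bases beyond each member. Both boxes were found in 61.3% of the 31 such members with FPKM above 0 and in 72.0% of the 182 listed at 0. These are matches of letters and not mapped sites.

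Most members were listed at 0. In mock, 231 of 257 members (89.9%, 95% Wilson interval 85.6% to 93.0%) were at 0, compared with 28.5% of all genes. In sgL1ASP #1, 230 members (89.5%, interval 85.1% to 92.7%) were at 0, compared with 28.3% of all genes. In sgL1ASP #3, 232 members (90.3%, interval 86.0% to 93.3%) were at 0, compared with 29.4% of all genes. The members are the same genes in each library and no replicates, so these intervals compare no libraries. They treat the members as independent draws, which repeats of 1 family may not be, and measure no spread between libraries. Of the 105 SNORA genes, 47.6% in mock, 44.8% with sgL1ASP #1 and 52.4% with sgL1ASP #3 were at 0.

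Which members were above 0 varied from library to library. Of the 257 members, 217 were at 0 in every library, 15 were above 0 in 1 library, 12 in 2 libraries and 13 in all 3, which is 5.06% of the members, compared with 67.0% of all genes. The numbers above 0 in a single library were 6 for mock, 4 for sgL1ASP #1 and 5 for sgL1ASP #3. Mock and sgL1ASP #1 shared 18 members above 0, which is 69.2% of those in mock and 66.7% of those with sgL1ASP #1. Mock and sgL1ASP #3 shared 15 members, 57.7% and 60.0% of each. The guides shared 18 members, 66.7% of those with sgL1ASP #1 and 72.0% of those with sgL1ASP #3. For all genes, each of these shares was between 95.1% and 96.5%.

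The members above 0 were among the longer ones. Members ranged from 33 to 237 bases with a median of 80 bases. Of the 98 members shorter than 75 bases in RefSeq, 0 were above 0 in any library. Above this limit, 4 of 30 members with 75 to 79 bases, 9 of 51 with 80 to 84 bases, 7 of 38 with 85 to 94 bases and 13 of 33 with 95 or more but under 120 bases were above 0. All 7 members of 120 bases or more were above 0 in at least 1 library. The limit was less sharp for microRNA genes, of which 2 of 331 under 75 bases and 50 of 847 longer ones were above 0. All 95 SNORA genes with a RefSeq length had at least 75 bases, and 66 of them were above 0. The limit did not hold for SNORD genes with GENCODE lengths. By these, SNORD58C had 64 bases, SNORD104 had 70 and SNORD99 had 74, and each was above 0 in some library.

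**Figure D1:**
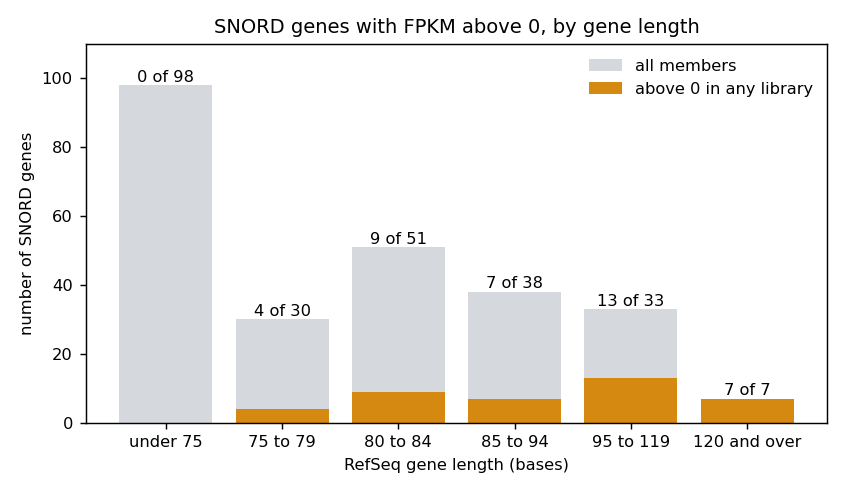
Number of SNORD genes (vertical axis) in each class of RefSeq gene length in bases (horizontal axis), with all members in grey and those with FPKM above 0 in at least 1 of the 3 libraries in orange. The orange part is missing for the 98 genes under 75 bases and fills the bar of the 7 genes of 120 bases or more.

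The families of imprinted regions were listed at 0 at every length. The SNORD115 and SNORD116 families, clustered repeats of the Prader-Willi region that are known from neurons, hold 45 and 27 members, and the SNORD113 and SNORD114 families, repeats of an imprinted region on another chromosome, hold 7 and 31. With SNORD64, SNORD107, SNORD108, SNORD109A and SNORD109B these make up the imprinted families, of which 0 members were above 0 in any library, although 74 have at least 75 bases and 41 have fewer. MEG8, the host gene of the SNORD113 and SNORD114 members, was itself listed at 0 in every library. Whether this bears on their values was not tested. How reads that match several copies of a family were counted is not given in the sources used here. Outside the imprinted families, 40 of 142 members (28.2%) were above 0, or 40 of the 85 with at least 75 bases (47.1%). The genes of U3, U8, U13 and U14 were not found by their SNORD names among the deposited gene names, so they are not among the members.

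Members above 0 had high FPKM. Their median was 174 in mock, 433 with sgL1ASP #1 and 624 with sgL1ASP #3, compared with 7.27, 7.16 and 7.37 for all genes above 0. FPKM was 1000 or more for 7 members in mock, 7 with sgL1ASP #1 and 10 with sgL1ASP #3. The members made up 1.10% of the gene names but 5.11% of the FPKM sum in mock, 7.85% with sgL1ASP #1 and 12.1% with sgL1ASP #3. The 3 highest members held 67.4%, 71.1% and 58.4% of the members' own sum in these libraries. The FPKM sum of sgL1ASP #3 was 53580.5 above that of mock, of which 49792.5 was the members and 3788 all other genes. For sgL1ASP #1 the sum was 41546 above mock, of which 20288 was the members and 21258 all other genes. These sums and shares can rest on few reads. By the steps described below, 1 step of a gene of 75 bases was worth FPKM 10435 on the mock scale.

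The highest members had lengths close to the read length. SNORD100, which guides methylation of 18S ribosomal RNA and lies in an intron of RPS12, had FPKM 12440 in mock, 6301 with sgL1ASP #1 and 22454 with sgL1ASP #3. It ranked number 2 of all genes in mock and number 1 with sgL1ASP #3. SNORD28, also a guide for 18S ribosomal RNA, is 1 of the members that the study lists. It has 75 bases, was listed at 0 in mock and had FPKM 21143 with sgL1ASP #1, number 2 of all genes, and 12557 with sgL1ASP #3. SNORD28 was thus at 0 in mock alone. SNORD26, a guide for 28S ribosomal RNA from the same host gene SNHG1 and of the same length, was listed at 0 in mock and sgL1ASP #1 and had FPKM 12557 with sgL1ASP #3. SNORD76, a guide for 28S ribosomal RNA from the host gene GAS5, had FPKM 2675 in mock, 9483 with sgL1ASP #1 and 9655 with sgL1ASP #3. The mock value lay below both guides, which were close to each other. SNORD104, which guides methylation of 28S ribosomal RNA, was listed at 0 in mock and had FPKM 3409 with sgL1ASP #1 and 6074 with sgL1ASP #3. SNORD87 was above 0 in mock alone, with FPKM 6220 in mock and 0 with both guides. SNORD99 was above 0 with sgL1ASP #3 alone, with the same FPKM of 6074 as SNORD104. SNORD35B had FPKM 1928.5 in mock, 2930.5 with sgL1ASP #1 and 2321 with sgL1ASP #3. These 3 values lay closer together than those of the members above. SNORD33, a guide for 18S ribosomal RNA in RPL13A, had FPKM 1799.8 in mock, 0 with sgL1ASP #1 and 2166 with sgL1ASP #3. SNORD58C had FPKM 1659, 672 and 1597 in the same order, lowest with sgL1ASP #1. SNORD21, the other member that the study lists, guides methylation of 28S ribosomal RNA and lies within RPL5. It was listed at 0 in mock and had FPKM 1009 with sgL1ASP #1 and 244 with sgL1ASP #3. The study's list holds genes called upregulated, by more than 1.5-fold for sgL1ASP #1 to sgL1ASP #3 and for sgL1ASP #3 to mock. With genes at 0 in mock counted, 2 members passed this rule, SNORD21 and SNORD28. Of the members above 0 in all 3 libraries, 0 passed it.

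**Figure D2:**
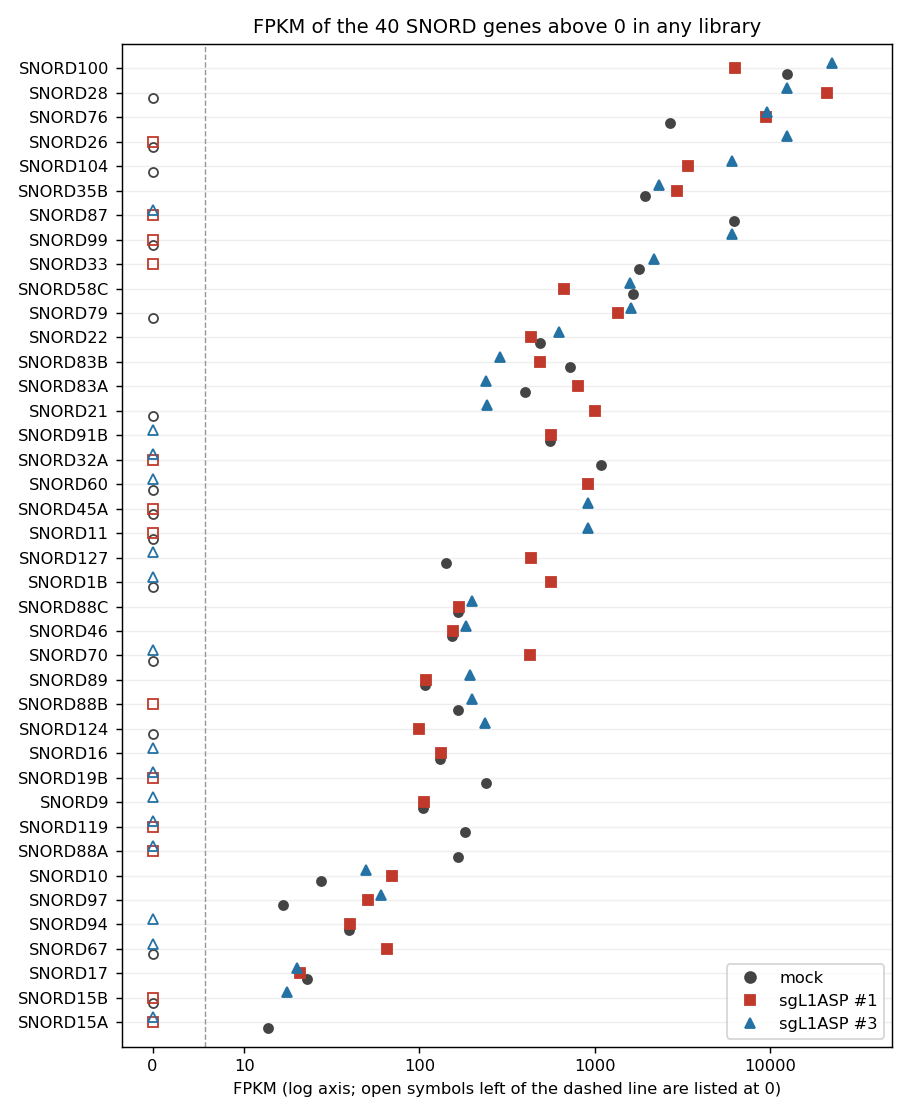
FPKM (horizontal log axis) of the 40 SNORD genes above 0 in at least 1 library (vertical axis, ordered by mean FPKM), with a circle for mock, a square for sgL1ASP #1 and a triangle for sgL1ASP #3. Open symbols left of the dashed line are listed at 0, which was the case in at least 1 library for all but 13 genes, and the values above 0 lie between 13.7 and 22454.

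FPKM fell steeply with length. Over the 40 members above 0, Spearman's rho between mean FPKM and gene length was -0.84, given as a description since all points share the same libraries. The median of the values above 0 was 12557 for members with 75 to 79 bases, 1983 for 80 to 84 bases, 617 for 85 to 94 bases, 167 for 95 or more but under 120 bases and 39.9 for 120 bases or more. The longest member, SNORD17 with 237 bases, was above 0 in all 3 libraries with FPKM 22.8 in mock, 21.0 with sgL1ASP #1 and 19.9 with sgL1ASP #3. The U15 pair, guides for 28S ribosomal RNA within RPS3, was at the low end. SNORD15A had FPKM 13.7 in mock and 0 with both guides, and SNORD15B had FPKM 17.6 with sgL1ASP #3 and 0 in the other libraries.

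**Figure D3:**
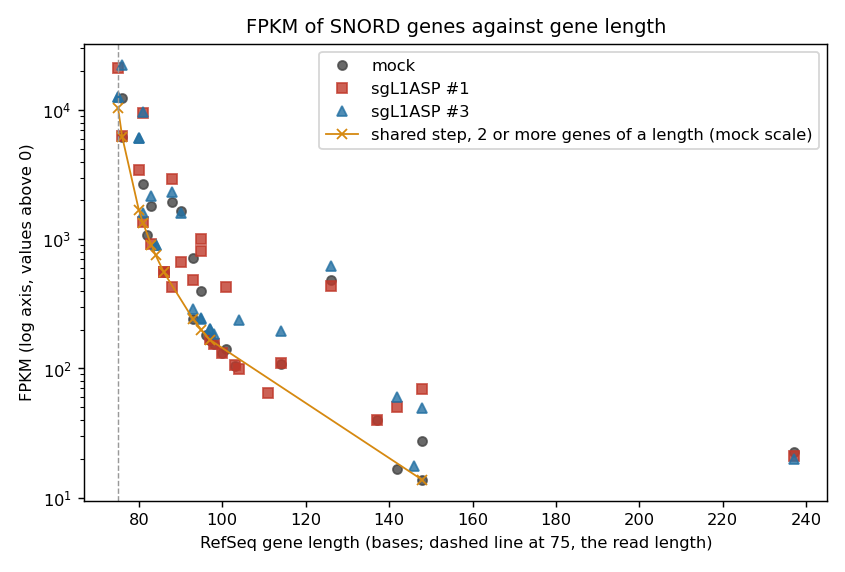
FPKM above 0 (vertical log axis) against RefSeq gene length in bases (horizontal axis) for the SNORD genes in mock (circles), sgL1ASP #1 (squares) and sgL1ASP #3 (triangles), with the read length of 75 bases dashed. Crosses joined by a line mark the step shared by genes of 1 length, which drops from 10435 at 75 bases to 13.7 at 148 bases.

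The values of a gene rise in equal steps when reads are counted whole, and such steps were seen in the members. Over genes under FPKM 0.3 but not at 0 in either library of a pair, the most frequent ratio was 1.013 for sgL1ASP #1 to mock (350 of 1476 genes), 1.203 for sgL1ASP #3 to mock (332 of 1404 genes) and 0.842 for sgL1ASP #1 to sgL1ASP #3 (356 of 1409 genes). These ratios were taken as those of equal read numbers. By them, 1 read was worth more FPKM with sgL1ASP #3 than in mock or with sgL1ASP #1. After division by them, the ratio of 2 libraries was a ratio of whole numbers up to 10 within 0.1% for 17 of 18 members (94.4%) between sgL1ASP #1 and mock, compared with 17.3% of all genes above 0 in both. It was so for 13 of 15 members (86.7%) between sgL1ASP #3 and mock, compared with 18.8% of all genes, and for 16 of 18 members (88.9%) between sgL1ASP #1 and sgL1ASP #3, compared with 18.8%. Of the 25 members above 0 in 2 or 3 libraries, 23 could be written in smallest whole numbers over all of their libraries. The lowest number of a member was limited to 10. The exceptions were SNORD21 and SNORD22. Larger numbers were not tried, so a member with more reads than this, as SNORD22 may be, is left out of the counts and sums that follow. For 18 of the 23 members, these numbers were 3 or lower in every library. Summed over the 23 members they came to 41 in mock, 54 with sgL1ASP #1 and 45 with sgL1ASP #3. They are the lowest read numbers that give the ratios, and any common multiple gives the same ratios.

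Members of the same length shared the same step. At 11 of the 12 lengths held by 2 or more members above 0, every value was a whole multiple, from 1 to 7, of 1 step within 2%. At 76 bases, FPKM of SNORD87 in mock was 6220, and SNORD100 had 2 of these steps in mock, 1 with sgL1ASP #1 and 3 with sgL1ASP #3. At 75 bases, SNORD28 had 2 steps with sgL1ASP #1 and 1 with sgL1ASP #3, and SNORD26 had 1 with sgL1ASP #3. At 81 bases, SNORD76 had 2 steps in mock, 7 with sgL1ASP #1 and 6 with sgL1ASP #3, and SNORD79, also in GAS5, had 0, 1 and 1. At 95 bases, SNORD21 had 5 steps with sgL1ASP #1 and 1.02 with sgL1ASP #3, while SNORD83A in RPL3 had 2 in mock, 4 with sgL1ASP #1 and 1 with sgL1ASP #3. At 97 bases, SNORD88A, SNORD88B and SNORD88C each had 1 step in mock. Their FPKM of 167 in that library was the same although the genes differ, with 87.9% to 91.2% identical positions. The exception was the length of 88 bases, with SNORD35B and SNORD70. On the mock scale, 1 step was worth FPKM 10435 at 75 bases and 13.7 at 148 bases, 762 times less. In mock, 2 genes of all had FPKM above the step at 75 bases.

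**Figure D4:**
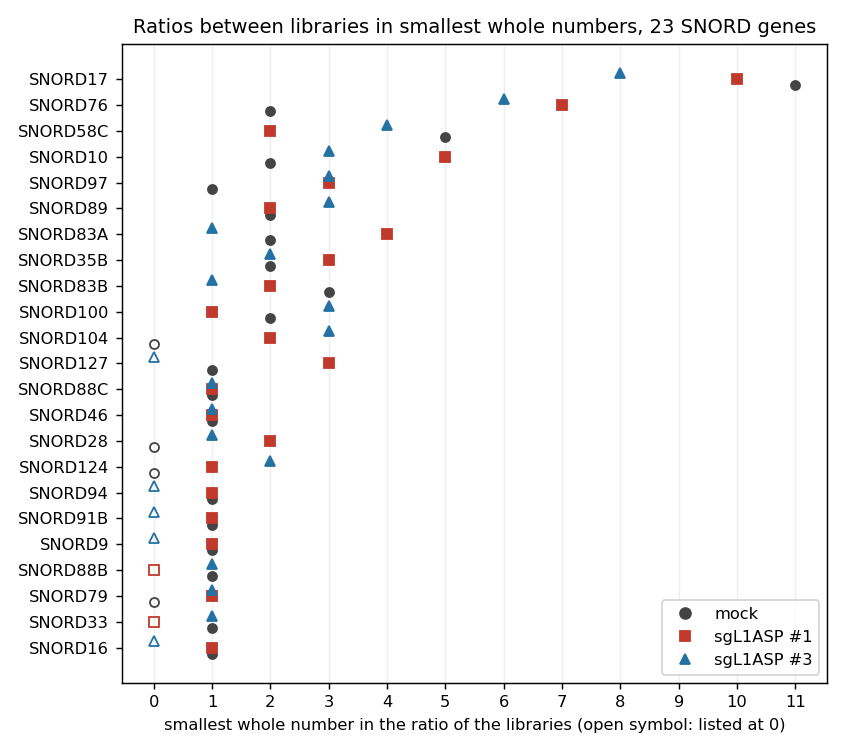
Smallest whole numbers (horizontal axis) that give the ratios between the libraries for 23 SNORD genes (vertical axis), after allowing for what 1 read is worth in each library, with a circle for mock, a square for sgL1ASP #1 and a triangle for sgL1ASP #3. Open symbols are listed at 0. For 18 of the 23 genes the numbers are 3 or lower in every library, values of 0 included. SNORD17 is the highest with 11, 10 and 8.

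Ratios between libraries were taken over members above 0 in both, beside those of all genes. In sgL1ASP #1 and mock, 18 members were above 0 in both, and the median absolute log2 ratio was 0.37, compared with 0.12 for all 15982 genes above 0 in both. More than 1.5-fold higher with sgL1ASP #1 were 6 of these members (33.3%), compared with 5.88% of all genes, and 2 (11.1%) were lower, compared with 5.99%. In sgL1ASP #3 and mock, the median was 0.35 over 15 members, compared with 0.12 over 15868 genes. Here 5 members (33.3%) were more than 1.5-fold higher, compared with 5.73% of all genes, and 2 (13.3%) were lower, compared with 6.24%. Between sgL1ASP #1 and sgL1ASP #3, the median was 0.64 over 18 members, compared with 0.12 over 15872 genes, with 4 members (22.2%) higher and 5 (27.8%) lower, compared with 5.93% and 5.84%. Over the same members, Spearman's rho of FPKM between the libraries was 0.96, 0.98 and 0.94 for the 3 pairs, as a description of values that all follow gene length. Members listed at 0 in 1 library of a pair are not in these numbers. They were 9 above 0 only with sgL1ASP #1 and 8 only in mock, 10 only with sgL1ASP #3 and 11 only in mock, and 9 only with sgL1ASP #1 and 7 only with sgL1ASP #3.

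Of the 13 members above 0 in all 3 libraries, 3 (23.1%) were more than 1.5-fold higher than mock with both guides, compared with 2.63% of the 15591 genes above 0 in all 3, and 0 were lower with both, compared with 2.19%. With each library rescaled to the same FPKM sum, SNORD83B was also lower with both. SNORD100 and SNORD83A (15.4%) were past 1.5-fold in opposite directions, compared with 0.917% of these genes, and 4 members (30.8%) were within 1.5-fold with both guides, compared with 83.6%. The 3 members higher with both guides were SNORD76, described above, and SNORD10 and SNORD97. SNORD10, in EIF4A1, had FPKM 27.4 in mock, 69.3 with sgL1ASP #1 and 49.4 with sgL1ASP #3, which is 2, 5 and 3 in whole numbers. SNORD97, in EIF4G2, which takes part in methylation of a transfer RNA, had FPKM 16.6 in mock, 50.6 with sgL1ASP #1 and 60.1 with sgL1ASP #3, which is 1, 3 and 3. The comparisons with mock share the mock library. If the whole numbers are the read numbers, the 95% exact binomial interval of the ratio of sgL1ASP #1 to mock, which covers counting error only, was 0.675 to 35.0 for SNORD76 (ratio 3.55), 0.415 to 26.6 for SNORD10 (ratio 2.53) and 0.244 to 159.5 for SNORD97 (ratio 3.04). For SNORD28, the ratio of sgL1ASP #1 to sgL1ASP #3 was 1.68 with an interval of 0.0877 to 99.3. All 47 ratios between libraries that could be written this way had intervals that include 1, but for 39 of them the total was so low that no split with at least 1 in each library could have left 1 outside.

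The members with the smallest differences were above 0 with both few and more steps. SNORD17 was within 1.5-fold of mock with both guides and held 11, 10 and 8 steps, the most among the 23 members written in whole numbers. This ranking leaves out SNORD22, for which a lowest number above the limit of 10 was not tried. SNORD22, which acts in processing of 18S ribosomal RNA, had FPKM 488 in mock, 433 with sgL1ASP #1 and 624 with sgL1ASP #3, and was also within 1.5-fold of mock with both guides. SNORD46, a guide for 28S ribosomal RNA, had FPKM 153, 155 and 185, and SNORD88C had 167, 169 and 201 in the same order. Both held the same number of steps in every library, and their values differed by the worth of 1 read alone. SNORD83A and SNORD83B are neighbours in RPL3. SNORD83A had FPKM 398 in mock, 807 with sgL1ASP #1 and 239.6 with sgL1ASP #3. SNORD83B had FPKM 723, 488 and 290.0, highest in mock. With sgL1ASP #1 the first was higher and the second lower than mock, and with sgL1ASP #3 both were lower. SNORD89, in RNF149, had FPKM 108 in mock, 109 with sgL1ASP #1 and 195 with sgL1ASP #3.

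Host genes were compared with mock in the same way. A host gene with a value was known for 34 of the 40 members above 0, which gave 27 host genes, and all 27 were within 1.5-fold of mock with both guides, as were 83.6% of all genes above 0 in all 3 libraries. GAS5, the host of SNORD76 and SNORD79, had FPKM 351 in mock, 353 with sgL1ASP #1 and 373 with sgL1ASP #3. SNHG1, the host of SNORD22, SNORD26 and SNORD28, had FPKM 508, 518 and 505. RPL5, the host of SNORD21, had FPKM 1994, 2257 and 2084, and RPS12, the host of SNORD100, had 1916, 2099 and 1911. Of the 8 SNORD genes named for the SNHG1 introns, 3 were above 0, and these were the 3 with at least 75 bases. Of the 10 named for the GAS5 introns, 2 were above 0 and 4 have at least 75 bases. The median of the mean FPKM was 187 for the 27 hosts of members above 0 and 75.6 for the 25 hosts of members with at least 75 bases that were at 0 in every library. Some genes host members of both kinds. Spearman's rho between the mean FPKM of a member and its host was 0.32 over 34 members, as a description. Of the 31 members above 0 that could be placed in GENCODE, 16 lay in introns of all annotated host transcripts and 15 overlapped an exon of at least 1 transcript, so reads of the host and of the small RNA cannot be told apart in these values.

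The protein genes of the pathway were listed by role. FBL, the methyltransferase fibrillarin, had FPKM 477 in mock, 494 with sgL1ASP #1 and 494 with sgL1ASP #3. Of its partners in the core particle, NOP56 had FPKM 231, 238 and 229, NOP58 had 76.1, 74.7 and 76.0, and NHP2L1, also named SNU13, had 178, 180.4 and 189. In 28 listed genes of core proteins, assembly factors, U3 and U8 particle proteins and exonucleases, 0 were past 1.5-fold with sgL1ASP #1, compared with 5.88% of all genes higher and 5.99% lower. Their ratios to mock were between 0.891 and 1.22. With sgL1ASP #3, 1 was lower and 0 were higher, compared with 6.24% and 5.73% of all genes. This was SMN1, a factor of ribonucleoprotein assembly, with FPKM 1.35 in mock, 1.59 with sgL1ASP #1 and 0.683 with sgL1ASP #3. Its value is uncertain, because reads can be shared with the near-identical copy SMN2, whose FPKM was 0.0906, 0.0899 and 0.0972.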

How the data were processed

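RNA-seq of 3 libraries, 1 per condition, was re-analysed. Per the labels and methods, total RNA was purified with a miRNeasy kit, stranded mRNA libraries were sequenced as single-end reads of 75 bases, and reads were mapped to hg19 with TopHat2 2.0.13, Bowtie2 2.2.3 and SAMtools 0.1.19. The authors calculated the deposited FPKM with Cufflinks 2.2.1 (its Cuffdiff program). The gene annotation is not given in the sources used here. In each file, 0 value columns belonged to no sample.

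The deposited FPKM were used as given. A fold change is a ratio of FPKM without a pseudocount over genes above 0 in both libraries, with the study's 1.5-fold threshold. Members, gene lists and alternatives were chosen with earlier results of these data known. Named genes are the members the study lists, the 10 with the highest mean FPKM, those above 0 in all 3 libraries with the largest and smallest ratios, the 6 highest of those at 0 in 1 or 2 libraries, members past 1.5-fold with both guides, families fixed by name, and their hosts. SNORD70, SNORD88A and SNORD88B were named after their values were seen, for the shared step.

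The alternatives were other detection limits, pseudocounts, scalings and a 2-fold threshold. Lengths are from RefSeq (GRCh38.p14), whose coordinates were used for the hosts of members without a host in GENCODE. Loci, strand and hosts are from GENCODE 44 lifted to GRCh37, which is hg19, on which 214 members were placed once on the RefSeq chromosome, and otherwise the host is the RefSeq gene that spans the member, with no strand. The counting of whole-number ratios was run on simulated data over 23284 genes, and recovered 100.0% of the ratios of 2159 genes. How often it is right for the deposited FPKM of the members was not tested. Python 3.11.15, NumPy 2.4.6, pandas 2.3.3, SciPy 1.17.1, Biopython 1.88 and matplotlib 3.10.9 were used.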

Additional observations from a re-analysis of the deposited data

Results flagged for a closer look

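Of the members above 0 in all 3 libraries, 2 were past 1.5-fold in opposite directions with the guides (15.4% of 13), compared with 0.917% of the 15591 genes above 0 in all 3. The ratio to mock of SNORD100 was 0.507 with sgL1ASP #1 and 1.81 with sgL1ASP #3, on 2 steps in mock, 1 with sgL1ASP #1 and 3 with sgL1ASP #3. The ratio to mock of SNORD83A was 2.03 with sgL1ASP #1 and 0.602 with sgL1ASP #3, on 2, 4 and 1 steps. With 1 library per condition the difference between the guides was not tested. Over counting error alone, the 95% exact binomial interval of the ratio of sgL1ASP #1 to sgL1ASP #3 was 0.00535 to 3.495 for SNORD100 and 0.333 to 166 for SNORD83A.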

How the results depend on the processing

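Over 21 results and 87 alternative settings, 51 values stayed within a factor of 1.5 of the reported value, or within the Wilson interval for the shares at 0, and 36 moved. Detection limits of FPKM 0.01 or 1 and summing by name left the shares at 0 and the 13 members above 0 in all 3 libraries as they were. They could not do otherwise, because the lowest member value above 0 was FPKM 13.7 and no member name was repeated. A limit of 1 on the mean FPKM likewise kept the same members. These settings are among the 51 and are no check of the results. Neither rescaling moved a number of SNORD genes past 1.5-fold in a single comparison, or a median, by more than 1.5 times. Rescaled to the same sum, 3 in place of 2 were lower for sgL1ASP #1 to mock, and 1, SNORD83B, in place of 0 was lower with both guides. At 2-fold, 0 in place of 2 were past the threshold in opposite directions. Alternatives for both guides together were chosen after seeing the data. Rescaling to a sum of 1000000 shifted the median log2 ratio of all genes to mock to -0.093 with sgL1ASP #1 and -0.12 with sgL1ASP #3.

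The share of the FPKM sum in mock was 3.10% without the member with the highest mean FPKM, SNORD100, and over the members above 0 in all 3 libraries it was 3.36% in mock, 3.28% with sgL1ASP #1 and 5.63% with sgL1ASP #3. With pseudocounts of 0.1 and 1 over the members above 0 in any library, the median absolute log2 ratio was 1.47 and 1.43 for sgL1ASP #1 to mock, 7.29 and 4.04 for sgL1ASP #3 to mock, and 1.25 and 1.24 for sgL1ASP #1 to sgL1ASP #3, since members at 0 in 1 library then enter. Counting such members, or either pseudocount, gave 15 higher and 10 lower for sgL1ASP #1 to mock, 15 higher and 13 lower for sgL1ASP #3 to mock, and 13 higher and 12 lower for sgL1ASP #1 to sgL1ASP #3. With a 2-fold threshold, 1 was lower for sgL1ASP #1 to mock, 2 were higher and 1 lower for sgL1ASP #3 to mock, and 2 were higher and 3 lower for sgL1ASP #1 to sgL1ASP #3, while 0 snoRNP protein genes were past it with sgL1ASP #3.

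No paired analysis was possible because mock and each guide had 1 library alone. What 1 read is worth at these lengths limits each value.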
